A study of Mus musculus with 16 samples.

Results

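The genes described here encode 6 liver-type plasma proteins, *Alb*, *Afp*, *Ttr*, *Apoa1*, *Apoa2* and *Ahsg*, followed pool by pool in mandibular molar germs of *Rsk2-/Y* and WT mouse embryos. They were selected by symbol, and each was read from the array probe set that pairs with its symbol alone. Each gene had 1 such probe set. All 6 genes were among the 17215 genes, of 19938 that can be read from a single-symbol probe set, whose log2 signal passed 5 in at least 1 pool. *Alb*, *Afp* and *Ttr* were chosen because single pools drove large genotype changes in these same data. Their genotype, series and interaction values are therefore given below as a description with no test.

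First mandibular molar germs were dissected from C57Bl6 embryos at E14.5, and RNA from pools of 4 germs was hybridized to Affymetrix Mouse Gene arrays. The samples were 8 WT pools and 8 *Rsk2-/Y* pools. *Rsk2*, whose mouse gene symbol is *Rps6ka3*, encodes a serine/threonine kinase on the X chromosome, and *Rsk2-/Y* males carry its knockout allele, for which the methods give the excision of an exon, with WT male littermates as controls. The labels name no other allele or agent, the groups shared strain, stage and dissection, and the study's methods give germs of a pair of embryos for each pool, so a pool is a mixture of animals. The pools carry names that begin with ABH or AZN, 2 series of 4 WT and 4 *Rsk2-/Y* pools each, and what these letters stand for is not given in the sources used here.

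Plasma proteins of this kind are made and secreted by hepatocytes, and before birth also by the endoderm of the yolk sac. Albumin is the main carrier protein of plasma and alpha-fetoprotein is its fetal relative, encoded by the neighbouring gene. The fetal liver is at the same time a main site of red cell formation. A tooth germ is composed of dental epithelium and neural crest derived mesenchyme, which are not known as main sources of these proteins.

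Promoters are shown for *Alb* and *Afp*, the neighbours with the widest swings between pools, and for *Apoa1*, whose signal was most like that of *Afp*. Each sequence holds the 250 bases before the RefSeq transcription start in GRCm38.p6, on the plus strand. Capitals mark TGTTTNC, the core bound by FOXA factors of endoderm, or its reverse complement. *Alb* lies at chr5:90460620-90460869, *Afp* at chr5:90490464-90490713 and *Apoa1* at chr9:46228380-46228629.
Alb: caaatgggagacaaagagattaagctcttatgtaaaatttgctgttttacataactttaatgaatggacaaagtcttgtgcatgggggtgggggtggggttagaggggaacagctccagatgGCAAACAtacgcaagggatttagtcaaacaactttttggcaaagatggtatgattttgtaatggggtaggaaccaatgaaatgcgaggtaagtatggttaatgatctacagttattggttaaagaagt
Afp: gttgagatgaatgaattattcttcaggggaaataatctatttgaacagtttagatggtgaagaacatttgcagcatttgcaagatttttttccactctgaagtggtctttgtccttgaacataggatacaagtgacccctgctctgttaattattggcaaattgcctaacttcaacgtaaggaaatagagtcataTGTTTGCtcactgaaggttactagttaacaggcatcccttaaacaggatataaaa
Apoa1: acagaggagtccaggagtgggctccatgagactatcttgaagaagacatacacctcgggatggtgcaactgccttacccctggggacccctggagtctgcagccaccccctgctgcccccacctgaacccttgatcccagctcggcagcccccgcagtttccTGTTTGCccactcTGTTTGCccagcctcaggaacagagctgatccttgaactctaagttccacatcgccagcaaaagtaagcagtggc

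TGTTTNC was searched on both strands. It was found once in the *Alb* window, 128 bases before the start on the minus strand, and once in the *Afp* window, 55 bases before the start on the plus strand. The *Apoa1* window held it at 88 and at 75 bases before the start, the *Ahsg* window at 79, and 1 of the 2 *Apoa2* windows at 77. Of 32851 RefSeq windows of this length, 17.8% hold it. TATAAA stood 7 bases before the *Afp* start and 212 before an *Apoa2* start, and is held by 12.4% of all windows. None of these matches overlapped another. A match is a description of letters and says nothing about binding in these samples.

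The deposited values ran from 2.57 to 13.97, and array medians from 6.74 to 6.94. No 2 arrays were identical, and their correlations ran from 0.976 to 0.997. Markers of the labelled tissue were present, with dental epithelium markers averaging 9.82 to 10.6 per pool and dental mesenchyme markers 10.2 to 10.8. The targeted gene *Rps6ka3* had a median log2 signal of 10.04 in WT pools (9.61 to 10.2, n = 8) and 10.06 in *Rsk2-/Y* pools (9.74 to 10.4, n = 8). These groups overlapped, so this probe set does not check the labels. Which exons it covers was not examined here. The X-inactivation transcript *Xist* was at 7.41 in ABH_15A, an *Rsk2-/Y* pool, and between 5.02 and 6.68 in the other 15 pools.

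*Alb* had the widest range over the 16 pools among the 17215 genes. Its log2 signal ran from 6.77 through a median of 8.75 to 11.95 in WT pools, and from 6.10 through 7.26 to 12.05 in *Rsk2-/Y* pools. The genotypes overlapped over nearly the whole scale, and each had very high and very low pools. The highest values were 12.05 in AZN_MolairesMutant4, 11.95 in ABH_13A, 11.12 in AZN_MolairesMutant1, 10.61 in ABH_15A, 10.60 in AZN_MolairesWT1, 10.28 in AZN_MolairesWT2 and 9.35 in ABH_12A. Below these came AZN_MolairesWT3 at 8.14, AZN_MolairesWT at 7.59, ABH_16A at 7.47, ABH_11A at 7.08, AZN_MolairesMutant at 7.04, ABH_26A at 6.92, ABH_25A at 6.77, AZN_MolairesMutant3 at 6.71 and ABH_14A at 6.10. From the lowest to the highest pool this is a 61.6-fold range of signal.

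*Afp* followed the same pools. WT pools ran from 5.24 through a median of 6.49 to 9.70, and *Rsk2-/Y* pools from 5.41 through 5.70 to 9.96. In *Rsk2-/Y* germs the 3 high pools, AZN_MolairesMutant4 at 9.96, ABH_15A at 9.79 and AZN_MolairesMutant1 at 9.49, stood far above the other 5, which lay between 5.41 and 5.73. The WT pools were graded instead, with ABH_13A at 9.70, AZN_MolairesWT2 at 8.12, AZN_MolairesWT1 at 8.06, ABH_12A at 6.86, AZN_MolairesWT3 at 6.12 and 3 pools between 5.24 and 5.58. The groups overlapped, and the lowest value of all was that of AZN_MolairesWT.

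*Ttr*, which encodes transthyretin, a carrier of thyroxine and of retinol-binding protein, was close to the signal minimum of 5 in most pools. WT values ran from 5.48 through a median of 5.70 to 8.15, and *Rsk2-/Y* values from 5.44 through 5.81 to 8.49. Its highest pool was ABH_15A at 8.49, followed by AZN_MolairesMutant4 at 8.21, ABH_13A at 8.15, AZN_MolairesMutant1 at 7.44, AZN_MolairesWT1 at 6.68 and AZN_MolairesWT2 at 6.37. The other 10 pools lay between 5.44 and 5.86, and the genotypes overlapped.

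**Figure D1:**
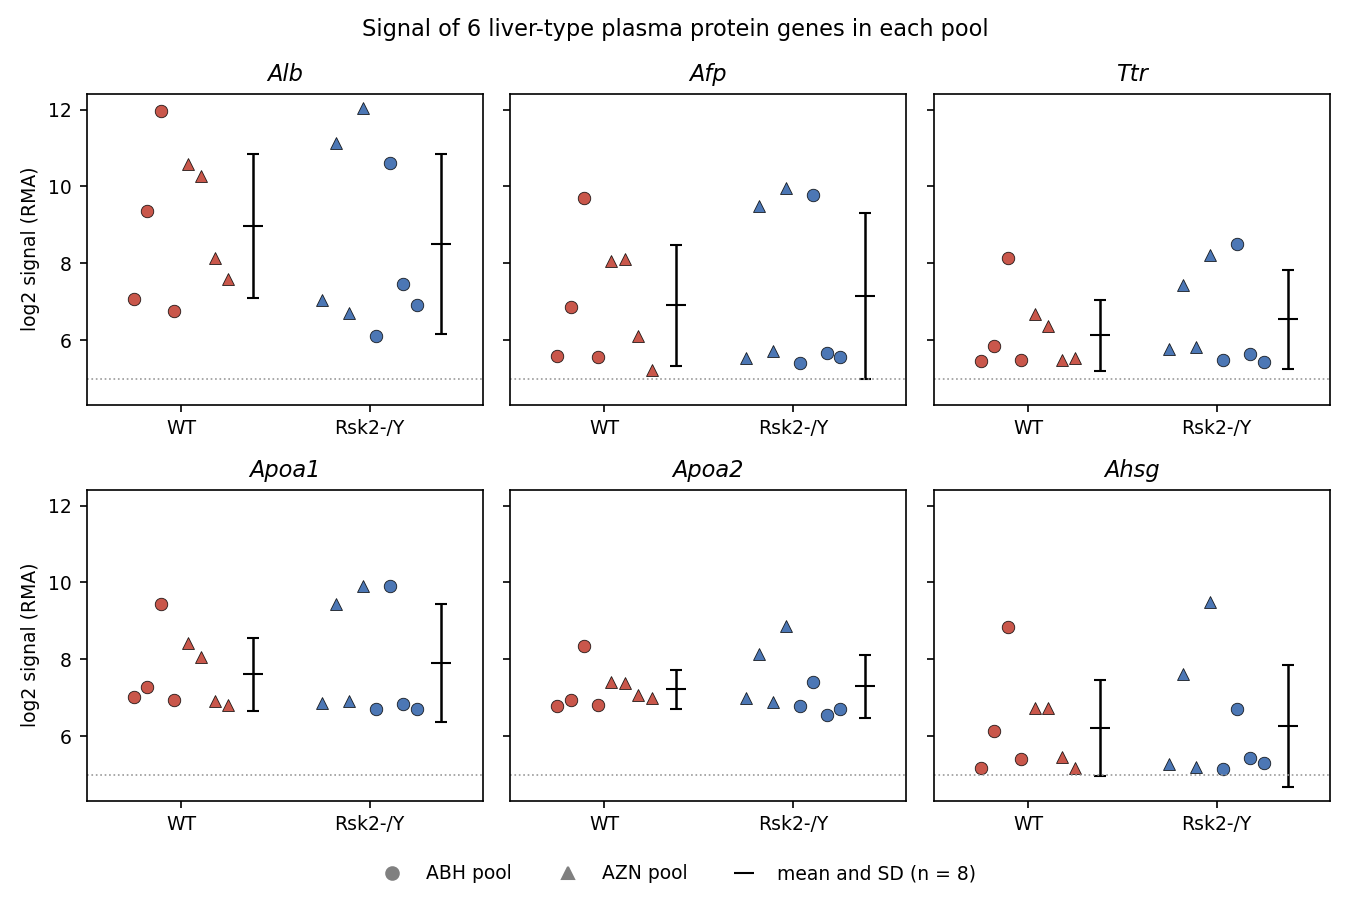
RMA log2 signal of each of the 6 genes (y axis) in the 8 WT (red) and 8 *Rsk2-/Y* (blue) pools, circles for ABH and triangles for AZN, with the group mean and SD beside the points and a dotted line at the signal minimum of 5. A few pools of either genotype sit high in every panel, up to 12.05 for *Alb*, and the genotypes overlap for each gene.

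*Apoa1* and *Apoa2* encode the main proteins of high-density lipoprotein. *Apoa1* signals ran from 6.83 through a median of 7.16 to 9.44 in WT pools and from 6.70 through 6.89 to 9.92 in *Rsk2-/Y* pools. ABH_15A at 9.92 and AZN_MolairesMutant4 at 9.91 were level at the top, with ABH_13A at 9.44 and AZN_MolairesMutant1 at 9.43 next. AZN_MolairesWT1 at 8.41 and AZN_MolairesWT2 at 8.07 lay between these and the remaining 10 pools, all of which were at or below 7.28. *Apoa2* moved over the narrowest range of the 6 genes, from 6.79 through 7.04 to 8.35 in WT pools and from 6.57 through 6.95 to 8.88 in *Rsk2-/Y* pools. Its high pools were AZN_MolairesMutant4 at 8.88, ABH_13A at 8.35 and AZN_MolairesMutant1 at 8.15, while ABH_15A, level with the top pool for *Apoa1*, had 7.42 for *Apoa2*, beside 7.41 and 7.38 in AZN_MolairesWT1 and AZN_MolairesWT2. The genotypes overlapped for both apolipoproteins.

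*Ahsg* encodes fetuin-A, a plasma glycoprotein that keeps calcium phosphate from precipitating. Its signal ran from 5.18 through a median of 5.81 to 8.85 in WT pools and from 5.15 through 5.37 to 9.49 in *Rsk2-/Y* pools. AZN_MolairesMutant4 at 9.49 and ABH_13A at 8.85 stood above AZN_MolairesMutant1 at 7.61. A middle set of pools followed, with AZN_MolairesWT2 at 6.75, AZN_MolairesWT1 at 6.74, ABH_15A at 6.72 and ABH_12A at 6.14, and the other 9 lay between 5.15 and 5.47. The groups overlapped.

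Across the 17215 genes, the range over 16 pools placed *Alb* at rank 1 with 5.94 on the log2 scale, *Afp* at rank 3 with 4.72 and *Ahsg* at rank 4 with 4.35. *Apoa1* ranked 14 with 3.22, *Ttr* 20 with 3.05 and *Apoa2* 101 with 2.31, and the median gene ranged over 0.50. *Alb*, *Afp* and *Ttr* were chosen for swings of single pools in these data, so their ranks restate that choice. Within a genotype, the pooled SD was 2.12 for *Alb*, 1.89 for *Afp*, 1.42 for *Ahsg*, 1.27 for *Apoa1*, 1.12 for *Ttr* and 0.68 for *Apoa2*, against 0.14 for the median gene. The difference between genotype means accounted for 0.048% (*Ahsg*) to 3.73% (*Ttr*) of the variance of these genes over the pools. Each pool was hybridized once, so neighbouring pools in these orders carry no error of their own. In a mixed tissue, more cells of a type and more RNA in each such cell cannot be told apart.

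The widest step between neighbouring *Alb* values, 1.21, lay between AZN_MolairesWT3 at 8.14 and ABH_12A at 9.35. The 7 pools above it were 4 WT and 3 *Rsk2-/Y* pools, 3 from ABH and 4 from AZN, and 9 pools lay below. All 7 stood above all 9 for *Afp*, *Ttr*, *Apoa1* and *Ahsg* too, narrowly for *Ttr* (5.86 against 5.83). For *Apoa2* this held for 6 of the 7, since ABH_12A at 6.96 was below AZN_MolairesWT3 at 7.08. The share of all genes that separate the same pools was not counted, so nothing is read from this separation. Among the 9 lower pools *Alb* still ranged over 2.04, but *Afp* over 0.88, *Apoa2* over 0.51, *Ttr* over 0.39, *Apoa1* over 0.34 and *Ahsg* over 0.33. In signal, the 9 pools thus differed more in *Alb* than in the other 5 genes. However, *Afp*, *Ttr* and *Ahsg* reached at most 6.12, 5.83 and 5.47 in these pools. Differences near a signal of 5 are understated, so these narrower ranges cannot be read as smaller differences in RNA.

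Over the 15 pairs of the 6 genes, Pearson correlations over the 16 pools ran from 0.859 (*Ttr* and *Apoa2*) to 0.985 (*Afp* and *Apoa1*), and Spearman correlations from 0.762 to 0.921. These values span the step in *Alb*, so they were also taken on each side of it. They ran from 0.672 (*Ttr* and *Ahsg*) to 0.986 (*Afp* and *Apoa1*) within the 7 high pools and from -0.090 (*Alb* and *Ttr*) to 0.664 (*Afp* and *Ahsg*) within the 9 low pools. Within ABH they ran from 0.829 to 0.995, within AZN from 0.876 to 0.984, and without the 2 pools farthest from the median from 0.808 to 0.982. All are descriptions over arrays that share their normalization. The step was taken from *Alb* itself and leaves the 9 low pools a narrow range, so nothing is read from their lower correlations.

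The study asked which genes differ between *Rsk2-/Y* and WT germs. Over all 18834 probe sets tested, limma with Benjamini-Hochberg adjustment called none higher and none lower in *Rsk2-/Y* (0% and 0%, adjusted p under 0.1 and fold change over 1.2), while an unadjusted p under 0.05 was reached by 222 in the higher and 540 in the lower direction. None of the 6 genes could therefore be among the calls. Without AZN_MolairesWT2, 1 probe set was called higher and 9 lower, none of them of these genes. *Apoa1* was 0.30 ± 0.56 (SE) higher in *Rsk2-/Y* on the log2 scale, *Apoa2* 0.08 ± 0.30 and *Ahsg* 0.058 ± 0.63, with an adjusted p of 0.9997 by limma for each. As a description, the chosen genes differed by -0.47 ± 0.94 (*Alb*), 0.24 ± 0.84 (*Afp*) and 0.41 ± 0.50 (*Ttr*). All 6 differences were smaller than their standard errors, and 5 of 6 were above 0, beside 7661 of all 18834 probe sets. The median was 0.16 for the 6 genes and -0.015 over all probe sets tested. The 6 genes moved together over the same pools, so their signs are not separate observations.

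Single pools set these differences. Leaving out ABH_13A, the highest WT pool for every one of the 6 genes, brought *Alb* from -0.47 to -0.040, and leaving out AZN_MolairesMutant4 brought it to -0.97. For *Afp* the same omissions gave 0.64 and -0.16, and for *Ahsg* 0.43 and -0.40, so the sign depended on which pool was left out. *Apoa2* went to 0.24 without ABH_13A and to -0.15 without AZN_MolairesMutant4. For *Ttr* and *Apoa1* the lowest value came without ABH_15A, 0.14 and 0.012, and the highest without ABH_13A, 0.70 and 0.56.

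Within the 8 ABH pools the *Rsk2-/Y* minus WT difference was -1.01 for *Alb*, -0.32 ± 1.11 (SE) for *Afp*, 0.026 ± 0.76 for *Ttr*, -0.13 ± 0.77 for *Apoa1*, -0.36 ± 0.33 for *Apoa2* and -0.75 ± 0.71 for *Ahsg*, and the SE for *Alb* was the widest of these. Within the 8 AZN pools it was 0.079 for *Alb*, again with the widest SE, 0.80 ± 1.05 for *Afp*, 0.80 ± 0.51 for *Ttr*, 0.73 ± 0.69 for *Apoa1*, 0.52 ± 0.37 for *Apoa2* and 0.86 ± 0.84 for *Ahsg*. The high *Rsk2-/Y* pools AZN_MolairesMutant1 and AZN_MolairesMutant4 both belong to AZN, and the highest WT pool to ABH. The difference of the differences, AZN minus ABH, was 0.86 ± 1.15 for *Apoa1* (limma adjusted p = 0.901), 0.87 ± 0.55 for *Apoa2* (0.823) and 1.61 ± 1.23 for *Ahsg* (0.838). As a description, it was 1.09 for *Alb*, 1.12 for *Afp* and 0.78 for *Ttr*. Over all probe sets this interaction gave 0 calls in either direction (0%), and 728 and 461 probe sets had an unadjusted p under 0.05 above and below 0.

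**Figure D2:**
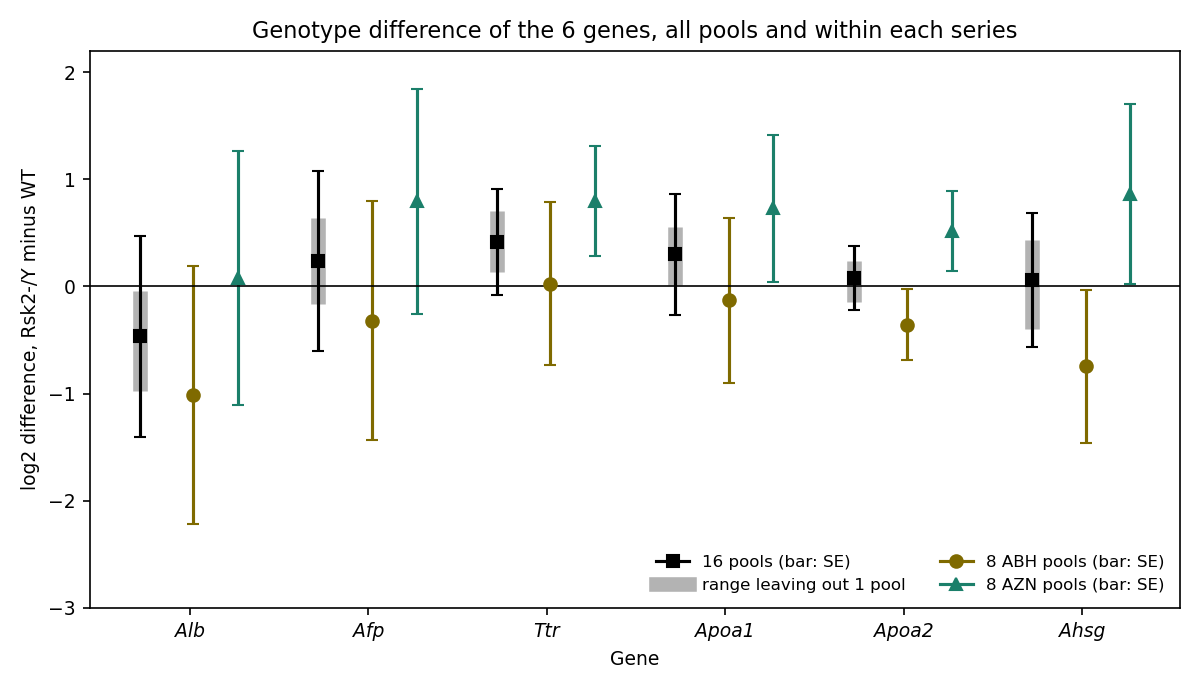
Log2 difference of *Rsk2-/Y* minus WT (y axis) for each gene, from all 16 pools (black squares, bars are SE), the 8 ABH pools (circles) and the 8 AZN pools (triangles), with grey bars for the range when 1 pool at a time was left out. The all-pool values lie between -0.47 and 0.41, each within 1 SE of 0, and each AZN value lies above its ABH value.

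The series of the names separated many other genes. With genotype in the model, limma called 1120 probe sets higher in AZN (5.95%) and 1991 lower (10.6%), a split that became 1471 and 1644 when each array was centred on its median. None of the 6 genes was called. AZN minus ABH was 0.31 ± 0.57 (SE) for *Apoa1* (limma adjusted p = 0.692), 0.43 ± 0.29 for *Apoa2* (0.260) and 0.44 ± 0.63 for *Ahsg* (0.608). As a description, it was 0.91 ± 0.93 for *Alb*, 0.51 ± 0.84 for *Afp* and 0.16 ± 0.50 for *Ttr*. With the wide spread between pools, the lack of calls does not show that the series were alike for these genes. Without ABH_13A, *Apoa2* was 0.63 ± 0.24 higher in AZN and passed the thresholds (adjusted p = 0.0531).

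The 5 genes whose signal was most like each of the 6, by Pearson correlation over the 16 pools, made up 19 distinct genes. These were the 6 genes themselves, 10 of the other listed plasma proteins, the erythroid gene *Rhag*, and *Mt1* and *Tnfrsf14*, which stood in no list. For *Alb* the closest was *Serpina6*, which encodes the corticosteroid-binding globulin (0.967), then *Afp*, the retinol carrier *Rbp4* (0.949), the metal-binding metallothionein *Mt1* (0.933) and the fibrinogen chain *Fgb* (0.931). For *Afp* they were *Apoa1*, *Fgb* (0.977), *Ttr*, *Alb* and the kininogen *Kng1* (0.958). *Ttr* was closest to the fibrinogen chain *Fgg* (0.989) and *Apoa1* to *Afp*, and for both of them *Fgb* and *Apob*, the main protein of low-density lipoprotein, were also among the 5. *Apoa2* was closest to the plasminogen gene *Plg* (0.975), and *Ahsg* to *Ambp*, a precursor of a protease inhibitor (0.979), *Itih2* (0.977) and *Rhag* (0.976). *Alb*, *Afp*, *Ttr* and *Apoa1* thus shared *Fgb* among their 5, and *Apoa2* and *Ahsg* shared *Ambp* and *Plg*.

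Of 73 other plasma proteins of liver that were listed, 65 could be read from a single-symbol probe set and 53 passed the signal minimum. The 12 that never passed 5 included the clotting factor *F9*, the serum amyloid gene *Saa1* and the iron hormone *Hamp*. In the genotype comparison 27 of the 53 were above 0 and 26 below, beside 7661 of all 18834 probe sets above 0. The median was 0.0021 against -0.015 over all probe sets, and none was called. By series, 45 of the 53 were above 0, beside 10080 of all 18834 probe sets, with the clotting factor *F12* called higher and the cholesterol-esterifying enzyme *Lcat* called lower in AZN, 1 of 53 each, beside the 5.95% and 10.6% of all probe sets.

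Of the 7 high pools, 6 held several of these proteins at raised signals and ABH_12A did not. In AZN_MolairesMutant4, 25 of the 53 stood more than 0.5 above their own median over the pools, in ABH_13A 23, in AZN_MolairesMutant1 17, in ABH_15A 9, and in AZN_MolairesWT1 and AZN_MolairesWT2 7 each. The remaining 10 pools, ABH_12A among them, had 0 or 1. The median over the 53 of the distance to the own median was 0.48 in AZN_MolairesMutant4, 0.44 in ABH_13A and 0.29 in AZN_MolairesMutant1, but 0.032 in ABH_15A and 0.046 in AZN_MolairesWT1, where only part of the list stood high. AZN_MolairesMutant4 was the highest pool for 19 of the 53 (35.8%) and for 3.21% of all genes, and ABH_13A for 14 (26.4%) and 6.69%. *Serpina6* is an example. It had 10.77 in ABH_13A, 10.60 in AZN_MolairesMutant4, 9.44 in AZN_MolairesMutant1, 9.26 in AZN_MolairesWT1 and 8.84 in AZN_MolairesWT2, but 7.59 in ABH_15A, near the 7.28 of ABH_12A, and between 5.01 and 6.40 in the other 9 pools. *Trf*, the iron carrier transferrin, had 10.16 in AZN_MolairesMutant4 and 9.95 in both ABH_13A and ABH_15A, against 7.46 in its lowest pool. The apolipoprotein *Apoe*, which many tissues make, had the highest mean signal of the list and ranged over 0.51 only.

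The listed genes of hepatocytes that encode no secreted protein ranged less between pools. Many of them lay near the signal minimum of 5, where differences are understated. Of 30 listed regulators and enzymes, 26 had a single-symbol probe set and 20 passed the minimum, and their pool means lay between 5.87 and 6.09. The amino acid enzymes *Otc* and *Tdo2*, the glucose enzymes *G6pc* and *Fbp1* and the transporters *Slco1b2* and *Abcb11* never passed 5. Only *Fah*, a tyrosine catabolism enzyme, ranged over more than 1, from 7.23 in AZN_MolairesMutant3 to 8.43 in ABH_25A, neither of them a high *Alb* pool. The gene of this list most correlated with *Alb* was the bile export transporter *Abcc2* (0.738), with 5.73 in ABH_13A against a median of 5.17. The regulator *Hnf4a* came next (0.701), with 6.72 in AZN_MolairesMutant1, its highest pool, against a median of 6.38. Both were named after their values were seen. In AZN_MolairesMutant4 and ABH_13A, 0 or 1 of the 20 stood more than 0.5 above its own median. The choroid plexus, which also makes transthyretin, was followed by 11 markers, and their pool means lay between 5.56 and 5.82, with 5.69 in ABH_15A, the highest pool for *Ttr*.

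**Figure D3:**
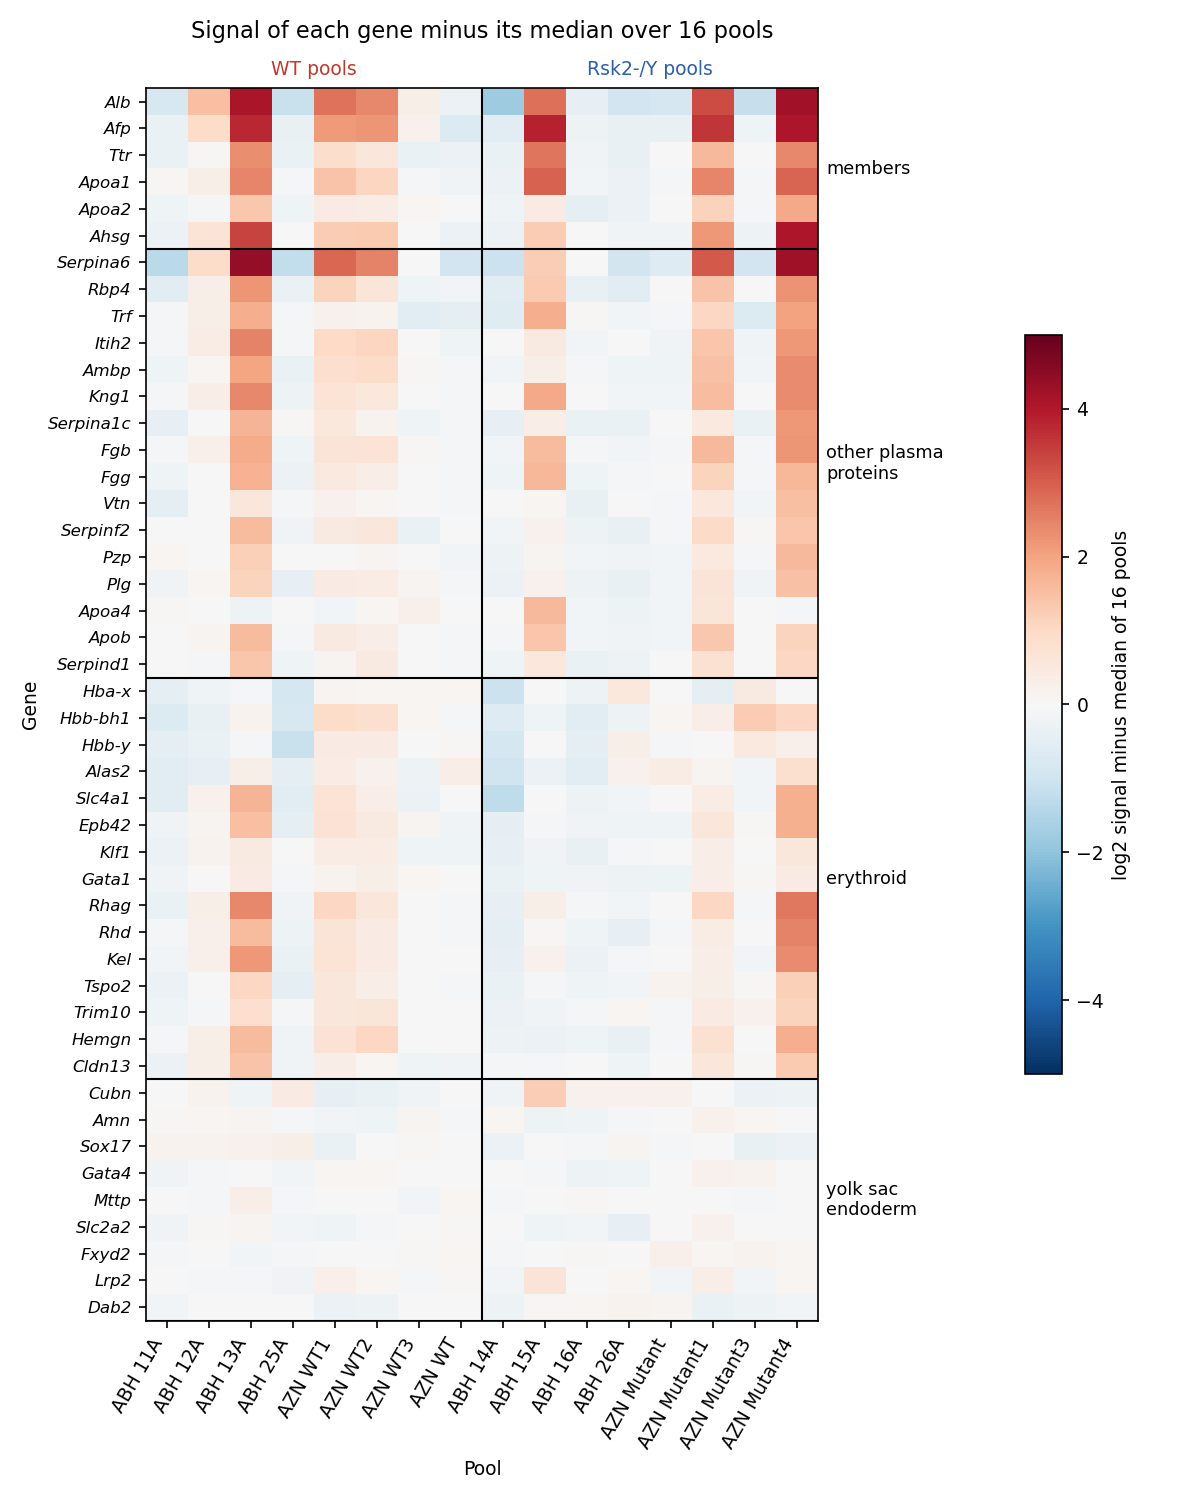
Log2 signal of each gene (rows) in each pool (columns) minus the gene's median over the 16 pools, in red above and blue below, for the 6 genes, the 16 other plasma protein genes with the widest range, 15 erythroid and 9 yolk sac endoderm markers. AZN_MolairesMutant4 and ABH_13A are red, lightly for some, for most genes of the first 3 blocks. *Apoa4*, *Hba-x* and *Hbb-y* are near 0 in both pools, and *Hbb-bh1* is near 0 in ABH_13A. ABH_15A is red, lightly for some, for *Alb*, *Afp*, *Ttr*, *Apoa1*, *Ahsg*, *Serpina6*, *Rbp4*, *Trf*, *Kng1*, *Fgb*, *Fgg*, *Apob*, *Apoa4* and *Cubn*. It is near 0 for most erythroid markers.

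Erythroid markers moved with part of the pattern. The 15 of 24 listed with a probe set averaged 8.27 in AZN_MolairesMutant4, 7.99 in ABH_13A, 7.52 in AZN_MolairesWT1, 7.40 in AZN_MolairesWT2 and 7.33 in AZN_MolairesMutant1, but 6.90 in ABH_15A. WT pools ranged from 6.56 to 7.99 and *Rsk2-/Y* pools from 6.41 to 8.27. The Rh-associated glycoprotein *Rhag* had 7.24 in AZN_MolairesMutant4 and 7.01 in ABH_13A, and no more than 5.66 in any other pool. The blood group gene *Kel* had 8.37 and 8.17 in these pools and 6.69 at most elsewhere. The embryonic globin *Hba-x* did not follow, with its highest value, 11.23, in ABH_26A, whose *Alb* signal was 6.92. The embryonic globins *Hbb-y* and *Hbb-bh1* were highest in AZN_MolairesMutant3 (12.26 and 7.13), whose *Alb* signal was 6.71. Their Pearson correlations with *Alb* were 0.435 and 0.495, and that of *Hba-x* was 0.199. By series, limma called *Hbb-bh1*, *Hbb-y* and *Alas2* higher in AZN, 3 of the 15 markers, beside 5.95% of all probe sets. AZN_MolairesMutant4 was the highest pool for 10 of the 15 markers. The adult globin genes could not be read from a single-symbol probe set, and the part of blood cells in the plasma protein signals was not tested.

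Markers of yolk sac endoderm were 9 of 12 listed, and their pool means ran from 6.71 to 6.86 in WT and from 6.72 to 6.97 in *Rsk2-/Y*. ABH_15A was the highest at 6.97, through 2 genes. The endocytic receptor *Cubn* had 7.39 in ABH_15A and 6.57 in the next pool, and its partner *Lrp2* had 6.90 there, while *Amn*, the membrane anchor of *Cubn*, was at its lowest in this pool with 6.61. By series, *Cubn* was called lower in AZN (-0.39, limma adjusted p = 0.0546), 1 of the 9 markers, beside 10.6% of all probe sets. ABH_15A, its highest pool, is on the ABH side of that comparison. The part of yolk sac endoderm in the plasma protein signals was not tested.

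ABH_15A and AZN_MolairesMutant4, both *Rsk2-/Y*, thus differed in which plasma proteins were high. From AZN_MolairesMutant4 to ABH_15A the difference was 0.28 for *Ttr* and 0.0067 for *Apoa1*, and -0.17 for *Afp*, so the pools were level for these genes. It was -1.44 for *Alb*, -1.46 for *Apoa2* and -2.77 for *Ahsg*. Among the 53 other plasma proteins 9 were higher in ABH_15A and 44 lower, with a median of -0.37, from -3.01 for *Serpina6* to 1.69 for *Apoa4*, a lipoprotein component made by intestine, liver and yolk sac. Of the 15 erythroid markers 14 were lower in ABH_15A, with a median of -1.30. The *Apoa4* signal was 7.95 in ABH_15A and 6.95 in AZN_MolairesMutant1, and it lay between 6.09 and 6.60 in the other 14 pools, AZN_MolairesMutant4 and ABH_13A included. Each of these profiles is that of 1 pool, with no replicate, and no test is given.

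**Figure D4:**
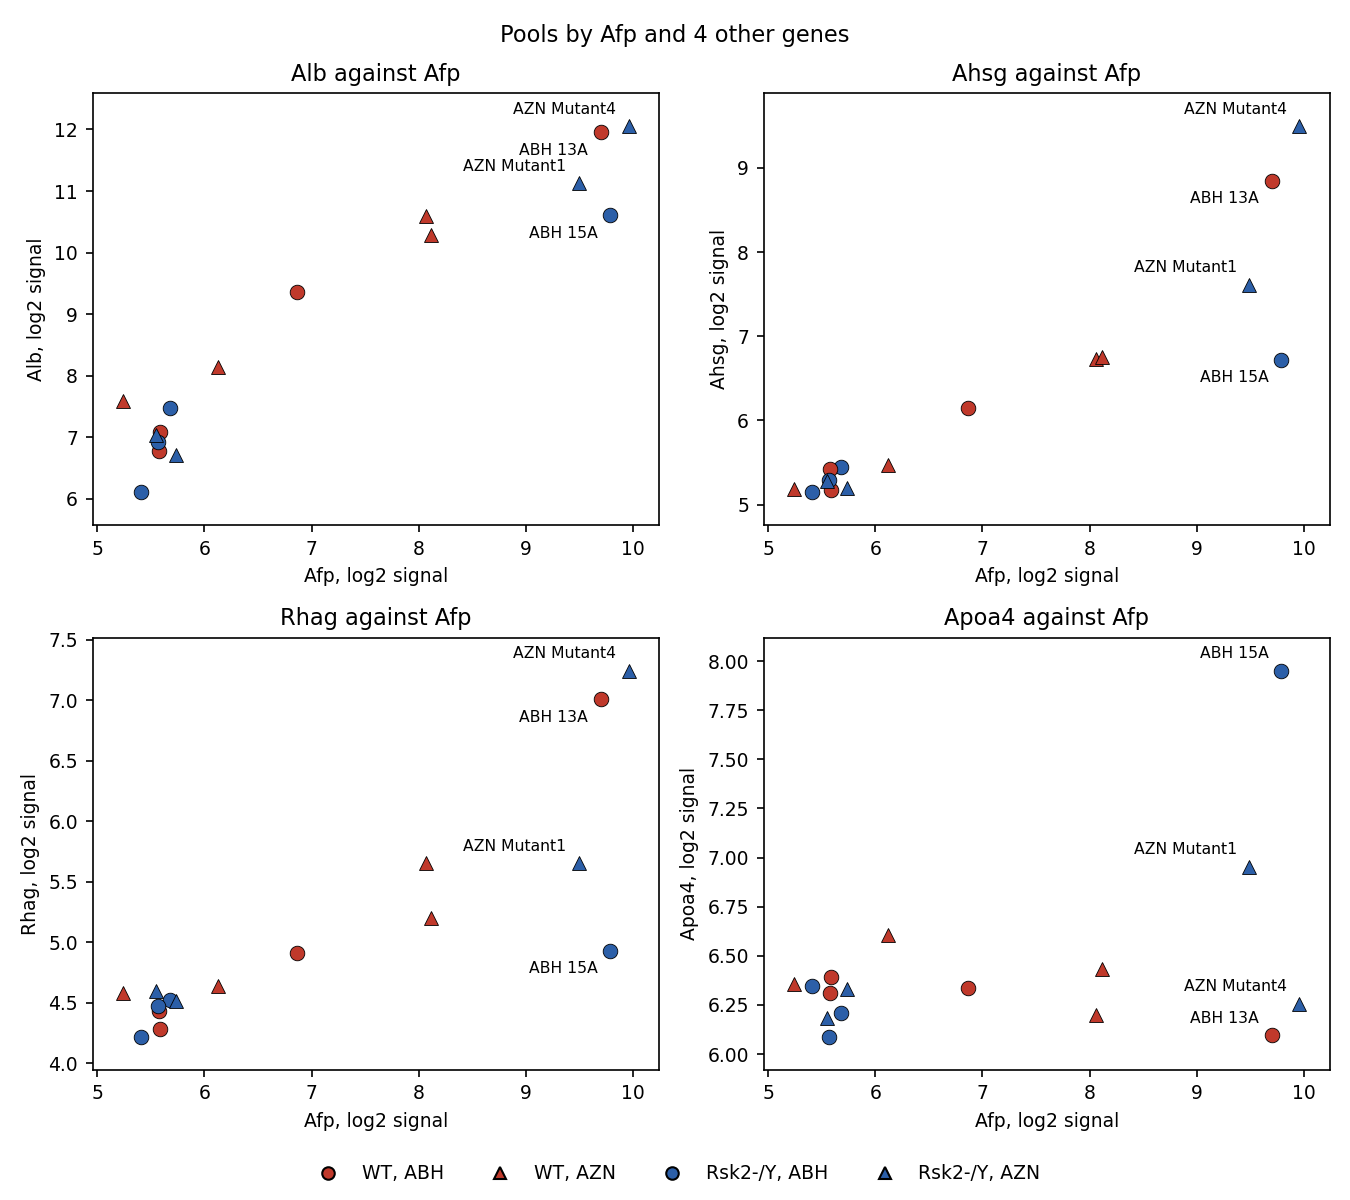
Log2 signal of *Alb*, *Ahsg*, *Rhag* and *Apoa4* (y axes) against that of *Afp* (x axes) in the 16 pools, red for WT, blue for *Rsk2-/Y*, circles for ABH and triangles for AZN. At about the same *Afp* signal, 9.70 to 9.96, ABH_15A lies below ABH_13A and AZN_MolairesMutant4 for *Alb*, *Ahsg* and *Rhag*, and above them for *Apoa4*.

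The 2 highest *Alb* pools were one of each genotype. From ABH_13A to AZN_MolairesMutant4 the difference ran from 0.066 for *Ttr* to 0.64 for *Ahsg* over the 6 genes, all above 0, and 30 of the 53 other plasma proteins were higher in AZN_MolairesMutant4, with a median of 0.077, from -0.47 for *Apob* to 0.93 for *Vtn*. AZN_MolairesMutant1 lay below AZN_MolairesMutant4 for all 6 genes, by 0.47 (*Afp*) to 1.88 (*Ahsg*). The WT pools AZN_MolairesWT1 and AZN_MolairesWT2 differed from each other by -0.052 (*Afp*) to 0.34 (*Apoa1*).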

How the data were processed

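RNA of 16 pools of mandibular molar germs was measured. The authors deposited log2 signals per probe set, for which the submitters' processing notes name RMA and version 1.3.1.187 of Affymetrix Expression Console. RMA corrects background, equalizes arrays and summarizes probes. Nothing was normalized further here. Because array values are compressed at both ends, fold changes near a signal of 5 are understated. Genotypes were taken from the labels. The number of arrays limits the precision, and p-values measure the spread between pools.

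Probe sets with 1 gene symbol in the platform annotation (21789 of 35556) and a signal above 5 in at least 1 pool (18834) were tested two-sided with lmFit and eBayes of limma 3.58.1 (R 4.3.3), with Benjamini-Hochberg adjustment over them, at an adjusted p under 0.1 and a fold change over 1.2, the study's thresholds. Genotype had no covariate, series had genotype as covariate, and the interaction used 4 groups of 4. For each gene the probe set of highest mean signal was used. The test was also run on simulated data with independent normal noise for each probe set. That setting is unlike genes that move together in a few pools, so nothing is read from it here. Alternatives were leaving out each pool, centring arrays, array weights, no signal filter, all probe sets, series or replicate number as a block, each series or genotype alone, and the methods' t-test. Correlations on each side of the Alb step and the alternatives of the interaction were added after seeing the data.

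The 6 genes, the lists and the tests were chosen with earlier results of these data known. Named genes were the 6, the 5 most like each, and from each list the 2 with the widest range, the 2 with the highest mean and any called; other genes were named after their values were seen. RefSeq (GRCm38.p6) gave promoter windows for 5 of the 6 genes, not for Ttr. The files name no genome build, so no other coordinates are given. Figures were drawn with matplotlib 3.10.9.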

Additional observations from a re-analysis of the deposited data

Results flagged for a closer look

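Of 112 groups of 8 pools, 2 for each of the 6 genes and the other named genes, 16 had a pool standing apart from its nearest neighbour by a share of the group's range beyond Dixon's critical value. Chance flags about 1 in 20 groups. However, *Alb*, *Afp* and *Ttr* were chosen for swings of single pools, and many others for a wide range or for likeness to the 6. Many of these genes also moved together, so the count of flags is not comparable with chance.

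Among WT pools ABH_13A stood alone at the top for *Ttr* (8.15, next 6.68), *Apoa2* (8.35, next 7.41) and *Ahsg* (8.85, next 6.75). It did so as well for *Trf* (9.95, next 8.44), *Fgb* (7.73, next 6.58), *Kng1* (7.26, next 5.55), *Fgg* (6.47, next 5.20) and *Apob* (7.03, next 5.91). *Alb*, *Afp* and *Apoa1* were not among these, since AZN_MolairesWT1 and AZN_MolairesWT2 filled the space below ABH_13A.

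Among *Rsk2-/Y* pools the erythroid gene *Rhag* was set apart in AZN_MolairesMutant4 (7.24, next 5.65) and *Cubn* in ABH_15A (7.39, next 6.38). None of the 6 genes was set apart in *Rsk2-/Y*, where 3 pools were high for *Alb*, *Afp*, *Ttr* and *Apoa1*. AZN_MolairesMutant3, a pool low for the 6 genes, was the lowest *Rsk2-/Y* pool for *Fah* (7.23, next 7.73), *Calml4* (6.64, next 7.24), *Dlx2* (9.79, next 10.4) and *Pax9* (10.05, next 10.7), and the highest for *Phex* (9.84, next 8.30). The muscle gene *Tnnc1* stood apart in the WT pool AZN_MolairesWT2 (9.33, next 8.09).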

How the results depend on the processing

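The genotype comparison made 0 calls in most settings. Leaving out 1 pool at a time gave 0 to 1 probe sets higher and 0 to 9 lower, the calls coming only when AZN_MolairesWT2 was left out. The series as a block gave 1 lower, and the ABH pools alone 1 higher and 3 lower. None of *Apoa1*, *Apoa2* and *Ahsg* was called in any setting of this comparison. Array weights brought *Alb* from -0.47 to -0.13 and *Afp* from 0.24 to 0.49. The methods' t-test gave 0 calls (211 and 578 probe sets above and below 0 had an unadjusted p under 0.05). In the ABH pools alone *Apoa1* (-0.13), *Apoa2* (-0.36) and *Ahsg* (-0.75) turned below 0. Leaving out 1 pool at a time gave -0.15 to 0.24 for *Apoa2*, -0.40 to 0.43 for *Ahsg* and 0.012 to 0.56 for *Apoa1*. AZN minus ABH turned below 0 in WT pools alone for *Afp* (-0.044), *Ttr* (-0.23), *Apoa1* (-0.12), *Apoa2* (-0.010) and *Ahsg* (-0.36), and leaving out AZN_MolairesMutant4 gave *Ttr* -0.084 (highest 0.48) and *Ahsg* -0.019 (highest 0.88). Over all probe sets, which are more in number, series calls were 2072 higher and 3191 lower, and centring gave the interaction 1 lower call. In the 9 low pools *Alb* and *Ttr* (-0.090), *Ttr* and *Ahsg* (-0.089) and *Apoa2* and *Ahsg* (-0.078) correlated below 0. The cause of these changes was not tested.

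The replicate block of AZN numbers 1 and 3 left the differences as they were, with 0 calls. Deviations of pools with the same number correlated at -0.034 and -0.0033, which cannot show whether these pools share more than a number. The unnumbered AZN pools, AZN_MolairesWT and AZN_MolairesMutant, correlated at 0.678, and the block did not treat them as a pair. Since each member has 1 probe set, no other probe set could be read. Values near 5 lie close to background, which limits what the low pools can show for *Afp*, *Ttr* and *Ahsg*.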

Other observations

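The genes below were named after their values were seen, as those by which a high pool led the other 15 most, among 17215 genes, and they are values of single pools without a test. In ABH_15A the widest leads were those of *Apoa4* (7.95, next 6.95), *Cubn* (7.39, next 6.57), the X-inactivation transcript *Xist* (7.41, next 6.68) and the protease inhibitor *A2m* (7.24, next 6.55). ABH_15A was thus led by a plasma lipoprotein gene and an endocytic receptor. The median of *Xist* over the 16 pools was 5.37.

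In AZN_MolairesMutant4 the leads were those of *Vtn* (7.40, next 6.47) and *F2* (7.25, next 6.33), which encode the plasma proteins vitronectin and prothrombin, of the red cell gene *Rhd* (8.78, next 7.90), the platelet chemokine *Ppbp* (8.62, next 7.96) and *Ahsg* (9.49, next 8.85). AZN_MolairesMutant1 was led by *Guca2b*, an intestinal peptide hormone gene (8.15, next 6.88), and *Prap1* (7.26, next 6.40). The small RNAs *n-R5s136* (11.25, next 10.51) and *Snora73a* (12.23, next 11.70) followed. The widest leads of AZN_MolairesWT1, AZN_MolairesWT2 and ABH_12A were *Crygd* (6.17, next 5.37), *Mir15a* (10.01, next 9.38) and *Capn11* (6.12, next 5.64). In ABH_13A the widest leads were those of *Otor* (8.16, next 6.06), *E330013P04Rik* (7.94, next 6.79) and the neutrophil enzyme *Mpo* (7.64, next 6.72). *Col14a1* (10.11, next 9.29) and *Ugt2b34* (6.31, next 5.57) followed.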
